A study of Homo sapiens with 45 samples.

Results

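The regions described here are the 1140 places in the genome of HEK293T cells where MBD3 was listed in the solvent control and none of CTCF, MBD2 and TET1 was. They were chosen by overlap between the authors' deposited peak lists: a DMSO MBD3 region was taken when it shared not a single base with a region of the DMSO CTCF, MBD2 or TET1 list. They make up 11.2% (95% Wilson interval 10.6 to 11.9) of the 10137 DMSO MBD3 regions, and the other 8997 shared at least 1 base with another list. Over the 12 lists of the series there were 53743 regions.

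HEK293T is a human embryonic kidney line. The cells received DMSO, 30 µM BPK25 or 0.5 mM IAA for 72 h, and chromatin was precipitated for each of the 4 proteins in 3 libraries per treatment, beside 3 input libraries per treatment. The labels speak of HEK293T and of edited cells derived from it, without naming an edit or the protein on which IAA, an auxin, would act. Each list was called on the 3 replicates together, so every value below is a single value without replicate error, no difference between lists was tested, and the intervals cover counting over regions only.

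MBD3 is a core subunit of NuRD, a complex that joins a nucleosome remodelling ATPase with histone deacetylases. A NuRD complex holds either MBD3 or its relative MBD2. MBD2 binds methylated CpG strongly, while mammalian MBD3 has lost most of that affinity, and MBD3 has been mapped to promoters and enhancers in many cell types. CTCF binds insulators and the anchors of chromatin loops, and TET1 oxidises methylated cytosine. Genes and DNA sequence at the regions were not analysed here, since the lists use build hg19.

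MBD3 regions found alone were weak members of their list by median fold and significance, but they were not enriched at the very lowest folds. Fold enrichment is the authors' ratio of pileup to local background at the summit, read here with 1 added to each. For the regions found alone it ran from 1.098 to 6.01 with a median of 3.02. The other MBD3 regions ran from 1.108 to 17.5 with a median of 3.96. Folds under 2 were rarer among the regions found alone, at 11 of 1140 (0.965%, 0.540 to 1.72). Of the other MBD3 regions, 216 of 8997 had one (2.401%, 2.104 to 2.738). The median −log10 q, the authors' significance after correction, was 3.64 for the regions found alone and 9.96 for the others. A −log10 q of 5 or more was reached by 361 of the 1140 (31.7%, 29.0 to 34.4), against 84.4% (83.6 to 85.1) of the others. The overlap that chose the regions rests on the same MBD3 list as these values, so they are a description.

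The weakness was graded by company. The median MBD3 fold was 3.02 with no other protein listed, 3.48 with 1, 3.84 with 2 and 4.33 with all 3, and the median −log10 q rose in the same order from 3.64 through 6.64 and 9.11 to 13.05. In fragments, the median pileup recovered at the summit was 25 for the regions found alone, and 32, 38 and 45 for regions with 1, 2 and 3 other proteins. The sets overlapped: the 95th percentile of fold among the regions found alone was 4.57, above the median of the MBD3 regions with all 3 other proteins.

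Across the MBD3 list, the share of regions found alone fell steeply with significance. The list was cut into 10 bins of similar size by −log10 q. In the lowest bin, from 1.30 to 3.11, 468 of 1022 regions were alone (45.8%, 42.8 to 48.9). In the next bin it was 284 of 1008 (28.2%, 25.5 to 31.0), and in the fifth bin 69 of 1020 (6.76%, 5.38 to 8.47). In the highest bin, from a −log10 q of 20.9 upwards, 1 of 1013 regions was alone. MBD3 regions of high significance were thus almost never alone.

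**Figure D1:**
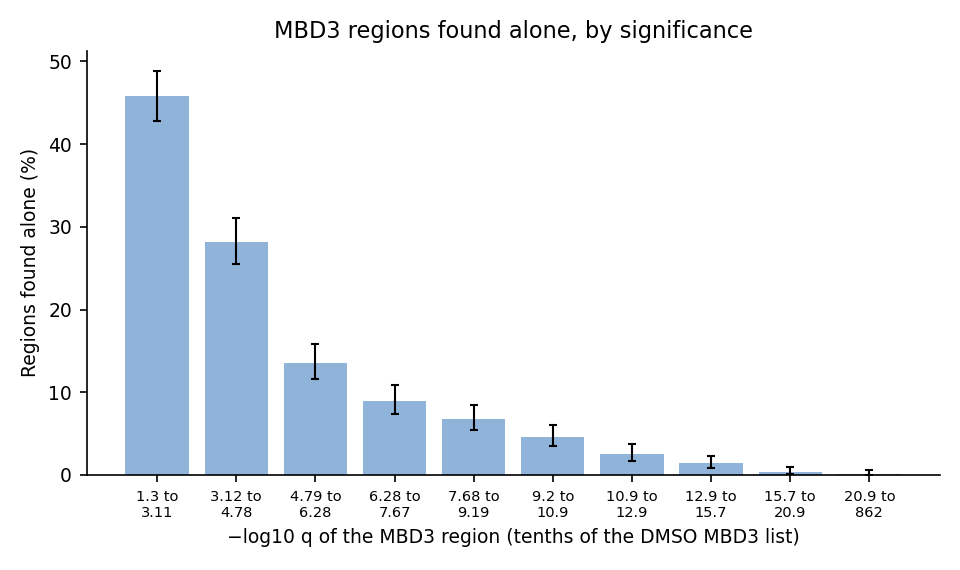
Share of DMSO MBD3 regions found alone (y axis, percent) in 10 bins of the MBD3 list by −log10 q (x axis, lowest to highest). Bars are shares and lines 95% Wilson intervals; the share goes from 45.8% in the lowest bin to 1 of 1013 regions in the highest.

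The lists of the other antibodies had regions of this kind as well. CTCF was alone at 4083 of 17440 regions (23.4%, 22.8 to 24.05), MBD2 at 3132 of 15991 regions (19.6%, 19.0 to 20.2) and TET1 at 732 of 7211 (10.2%, 9.48 to 10.9). Among regions with a −log10 q under 5, the share alone was 35.7% (33.7 to 37.7) for MBD3, 56.8% (54.9 to 58.7) for CTCF, 52.0% (49.9 to 54.0) for MBD2 and 27.2% (25.4 to 29.2) for TET1. From 5 to 10 it was 8.64% (7.74 to 9.62) for MBD3, 32.2% (31.0 to 33.5) for CTCF, 26.7% (25.5 to 28.0) for MBD2 and 4.67% (3.93 to 5.53) for TET1. In these bins MBD3 was alone less often than CTCF and MBD2 and more often than TET1. At 20 or more, MBD3 was alone at 2 of 1134 regions (0.176%, 0.0484 to 0.641) and TET1 at 2 of 515 (0.388%, 0.107 to 1.40), with overlapping intervals. The lists against which each antibody was compared differ in length, and their part in this order was not tested. The median fold of regions found alone was 3.77 for MBD2 and 2.78 for TET1, against 3.02 for MBD3.

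The local background is the fragment number that the caller expected at a region. The lowest value of a list, its floor, stands for the background of the whole genome. For DMSO MBD3 the floor was 4.72 fragments, and at it a region needed at least 15 fragments to be listed. For DMSO CTCF, MBD2 and TET1 the floors were 4.35, 3.77 and 5.68 fragments, and the smallest listed pileups at the floor were 14, 13 and 17. These smallest pileups ran from 13 fragments for MBD2 to 17 for TET1. Their part in which regions were found alone was not tested.

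Regions found alone lay at low local background. Their median was 7.09 fragments, 1.50 times the floor, against 9.03 fragments and 1.91 times for the other MBD3 regions. The background was at the floor itself for 110 of 1140 (9.65%, 8.07 to 11.5) and for 3.03% (2.70 to 3.41) of the others. It was raised, meaning over 3 times the floor, for 50 of 1140 (4.39%, 3.34 to 5.74) and for 13.4% (12.7 to 14.1) of the others. Regions found alone were also short, with a median width of 222 bp against 237 bp. Only 13 of the 1140 (1.14%) had more than 1 sub-peak, against 3.01% of the others. Sets near to this one shared several of these traits. MBD3 regions with 1 other protein had a median width of 221 bp, and 1.64% had more than 1 sub-peak. Regions found alone of MBD2 and TET1 were at the floor in 9.80% and 10.5% and raised in 4.82% and 3.01%. They had more than 1 sub-peak in 0.926% and 1.09%.

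**Figure D2:**
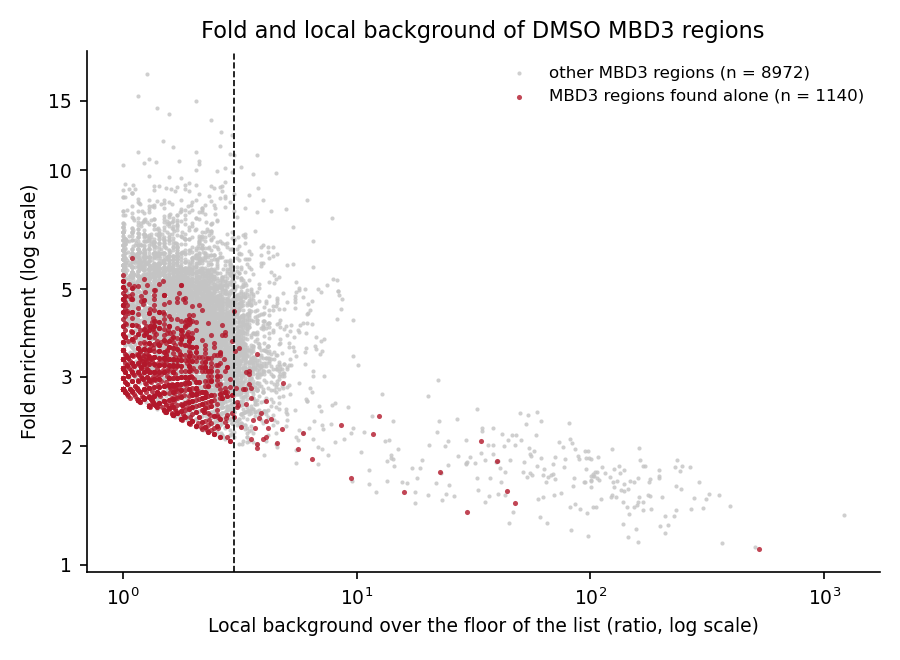
Fold enrichment (y axis, log scale) against local background over the floor of the list (x axis, ratio, log scale) for the 1140 MBD3 regions found alone and the 8972 others with a recovered pileup; the dashed line marks 3 times the floor. Regions found alone lie mostly in the lower part of the cloud, among other MBD3 regions, and 50 lie to the right of the line.

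The 10 regions of highest fold had folds from 5.13 to 6.01, on 29 to 41 fragments. Their gaps to the nearest region of another DMSO list ran from 11799 to 447281 bp. The first, chr7:42785018-42785237, had a fold of 6.01 and a −log10 q of 14.9, with 36 fragments over a background of 5.16. It ranked only 614th by fold in the MBD3 list. Its nearest region of another DMSO list was an MBD2 region 97573 bp away. The second, chr1:222269596-222269809, had a fold of 5.42 with 30 fragments at the floor background of 4.72, and its nearest CTCF region lay 238850 bp away. The third, chr11:134131992-134132185, had a fold of 5.29 with 35 fragments.

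The next 3 regions tied at a fold of 5.25, each with 29 fragments at the floor. One of them, chr16:6131456-6131671, was the most isolated of the 10 of highest fold: the nearest MBD2, TET1 and CTCF regions were 447281, 561460 and 988879 bp away. The others of the tie were chr2:189389317-189389529, with all 3 other proteins listed 11799 to 11816 bp away, and chr3:98062821-98063051, with CTCF 13885 bp away. The next 4 had folds from 5.13 to 5.24. They were chr15:86658484-86658779, with 41 fragments, chr8:21641934-21642139, chr11:1650111-1650305 and chr9:113132642-113132920. None of these 10 regions overlapped a region of any of the 8 treated lists, which held 19 of the 1140 in all, so that a count of 0 among 10 says nothing particular of them.

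The regions of largest −log10 q differed among themselves. The largest, 27.1, belonged to chrX:61713256-61713449, which had a fold of only 2.06 on 331 fragments over a background of 160, or 34.0 times the floor. Next came chr15:90844508-90844736 with a −log10 q of 19.1, a fold of 4.41 and 66 fragments, at 3.01 times the floor. The third, chr17:4965748-4965946, had a −log10 q of 16.2 and a fold of 5.12 at 1.78 times the floor. The first thus joined very many fragments with a low fold, and the other 2 had folds above the median of the set. Off these chromosomes, a region on 9_gl000199_random had a −log10 q of 20.1 and a fold of 1.83, at 40.0 times the floor.

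The widest regions were chr15:101112368-101112973 (606 bp, 2 sub-peaks, fold 3.69), chr14:19723418-19723957 (540 bp, 2 sub-peaks, fold 2.81) and chrX:53707323-53707859 (537 bp, fold 3.02). All 3 had a local background under 1.4 times the floor.

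Some regions missed the others by little. Just inside the rule, chr14:37304376-37304682 (fold 2.69) lay 1 bp from a TET1 region, chr13:92011585-92011805 (fold 2.43) lay 4 bp from an MBD2 region, and chr7:31215484-31215703 (fold 2.88) lay 11 bp from a CTCF region. Just outside it, chr12:39712107-39712321 (fold 3.65) shared 7 bases with a CTCF region, chr9:131458138-131458423 (fold 2.63) shared 14 with an MBD2 region, and chr1:115300605-115300895 (fold 2.13) shared at most 15 with an MBD2 region. Such cases were few: 38 of 1140 regions (3.33%, 2.44 to 4.54) lay under 500 bp from a region of another DMSO list and 75 (6.58%, 5.28 to 8.17) under 1000 bp. At 29 of these 75 the neighbouring region was itself an MBD3 region, so that MBD3 was listed on both sides of the gap.

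Most regions found alone lay 10000 bp or more from any region of the other proteins. These gaps were not compared with those of random places. The median gap was 43625 bp to CTCF, 48685 bp to MBD2 and 108832 bp to TET1, and 32412 bp to the nearest of the 3. CTCF was nearest for 569 regions (49.9%), MBD2 for 456 (40.0%) and TET1 for 115 (10.1%), an order that follows the length of the lists. Under 10000 bp from any of the 3 were 282 regions (24.7%, 22.3 to 27.3). MBD2 regions found alone had a like median gap of 35665 bp to the nearest of their 3 other lists and TET1 regions found alone one of 30970 bp. Close neighbours were more frequent for MBD3 than for MBD2: under 1000 bp lay 6.58% of the MBD3 regions found alone, 3.99% (3.36 to 4.73) of those of MBD2 and 6.15% (4.63 to 8.13) of those of TET1. Under 500 bp the shares were 3.33%, 1.82% (1.41 to 2.35) and 3.01% (1.99 to 4.51). Gaps of MBD3 counted the 15991 MBD2 regions, and those of MBD2 the 10137 MBD3 regions. The part of this difference in list length was not tested.

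**Figure D3:**
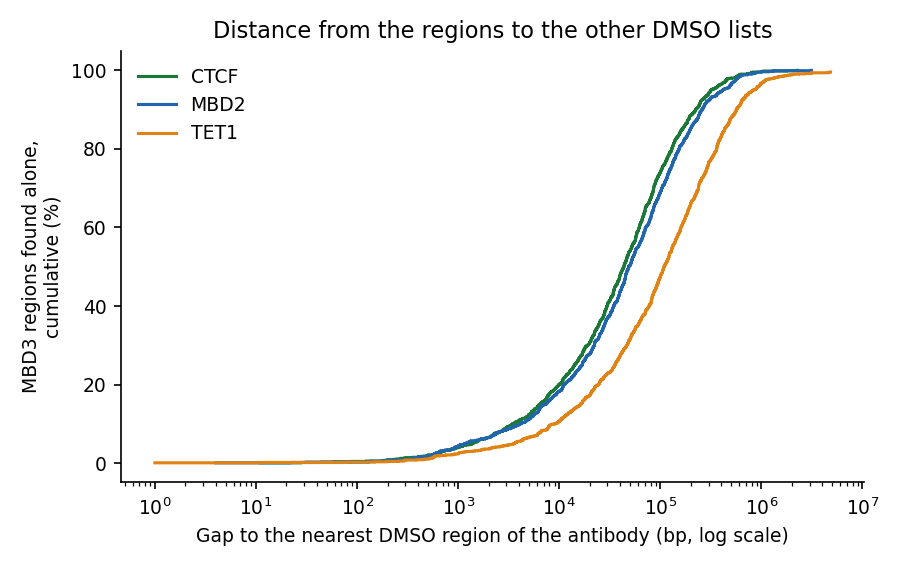
Cumulative share of the 1140 MBD3 regions found alone (y axis, percent) against the gap to the nearest DMSO region of CTCF, MBD2 or TET1 (x axis, bp, log scale). The medians are 43625 bp for CTCF, 48685 bp for MBD2 and 108832 bp for TET1, and few regions lie under 1000 bp.

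Most regions had no other region of the set close by. Whether their spacing differed from a random one was not tested. The median distance from a summit to the summit of the nearest other region of the set was 753732 bp, and 29 of 1140 (2.54%) had one under 10000 bp. To the nearest MBD3 region of any kind the median was 79443 bp, against 59868 bp for the other MBD3 regions. Stretches of under 100 kb with 3 or more regions numbered 7 and held 22 regions in all. The fullest, chrX:61712028-61730216, held 4, at 9.50 to 43.9 times the floor and with folds of 1.36 to 2.06. Then came chrX:73033438-73061374 with 3 regions of fold 2.55 to 2.81, and chr14:21671665-21709786 with 3 of fold 2.51 to 3.95. In these 2 stretches the local background was under 2 times the floor. Further stretches also held 3 each, and the shortest were taken.

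By chromosome, the share of MBD3 regions found alone differed. On chromosome 13 it was 62 of 307 (20.2%, 16.1 to 25.04), against 10.98% (10.4 to 11.6) on the other chromosomes of 1 to 22 and X. On chromosome 12 it was 30 of 518 (5.79%, 4.09 to 8.15), against 11.6% (10.9 to 12.2). Both were singled out after seeing all 23 values as the highest and the lowest. Below the median −log10 q of the MBD3 list, chromosome 13 gave 61 of 161 (37.9%, 30.8 to 45.6) and the others 20.1% (19.0 to 21.2), and chromosome 12 gave 28 of 256 (10.9%, 7.68 to 15.4) and the others 21.2% (20.1 to 22.4). At or above the median, chromosome 13 gave 1 of 146 (0.685%, 0.121 to 3.78) and the others 1.83% (1.49 to 2.25), and chromosome 12 gave 2 of 262 (0.763%, 0.210 to 2.74) and the others 1.86% (1.51 to 2.28), with overlapping intervals. The intervals were thus apart below the median. Counts of 1 and 2 at or above it are too small to tell whether the contrasts held there. The part of −log10 q in the contrasts was not tested.

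**Figure D4:**
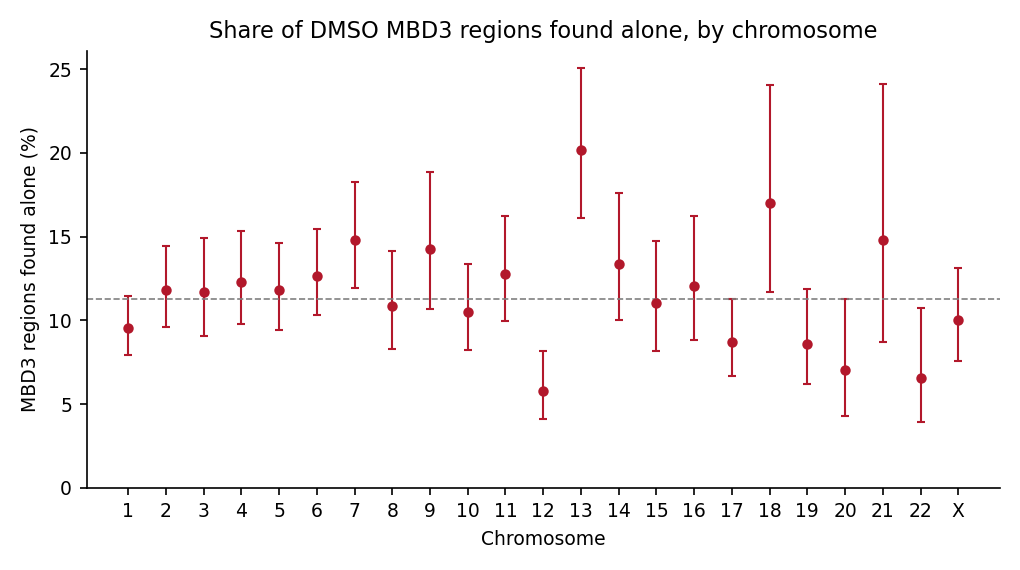
Share of DMSO MBD3 regions found alone (y axis, percent) on each of chromosomes 1 to 22 and X (x axis); points are shares, lines 95% Wilson intervals and the dashed line is 11.2%, the share in the whole list. Chromosome 13 stands highest at 20.2% and chromosome 12 lowest at 5.79%.

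Within chromosome 13 the excess lay between 60 and 100 Mb, a span chosen after seeing counts in windows of 10 Mb. There 47 of 179 MBD3 regions were alone (26.3%, 20.4 to 33.2), and on the rest of the chromosome 15 of 128 (11.7%, 7.23 to 18.4). TET1 showed the same contrast, with 39 of 152 regions alone in the span (25.7%, 19.4 to 33.1) and 8 of 97 outside it (8.25%, 4.24 to 15.4). For MBD2 the shares were 25.7% (20.2 to 32.2) and 23.9% (18.7 to 29.9), and for CTCF 29.1% (23.6 to 35.2) and 22.04% (17.3 to 27.6), with overlapping intervals. On the other chromosomes of 1 to 22 and X, TET1 was alone at 9.82% (9.14 to 10.5) and MBD2 at 19.5% (18.9 to 20.1). Both intervals were apart from those of the span, that of MBD2 only just. CTCF was alone there at 23.3% (22.6 to 23.9), overlapping the interval of the span. The local background was high in the span. Its median over all MBD3 regions was 12.9 fragments, 2.73 times the floor, against 1.50 times on the rest of chromosome 13 and 1.84 times on the other chromosomes. For MBD2, TET1 and CTCF the median in the span was 2.88, 2.70 and 2.82 times the floor of their lists. The part of the local background in the excess was not tested. The regions found alone in the span had a median fold of 2.65, against 3.08 on the other chromosomes.

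Under BPK25, MBD3 was listed at 1 of the 1140 regions (0.0877%, 0.0155 to 0.495), against 1.71% of all DMSO MBD3 regions. It was chrX:61713670-61713871, in the stretch of raised background named above. Its DMSO fold was 1.54 on 320 fragments at 43.9 times the floor, and its BPK25 MBD3 fold was 3.38 on 61 fragments at 46.4 times the floor of that list. The same region was the single one listed for CTCF under BPK25 (fold 3.79), against 1.96% of all MBD3 regions. Without regions of raised background, MBD3 was listed under BPK25 at none of 1090 regions found alone (0%, 0 to 0.351) and at 26 of 7769 others (0.335%, 0.228 to 0.490), with overlapping intervals.

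Under IAA, MBD3, MBD2 and TET1 were listed at none of the 1140 regions (0%, 0 to 0.336), against 0.74%, 1.08% and 0.779% of all DMSO MBD3 regions. CTCF was listed under IAA at 3 (0.263%, 0.0895 to 0.771), against 1.58%. One of these was chr6:58776859-58777054, with a DMSO fold of 1.098 on 2717 fragments at 524 times the floor. Another lay on the unplaced sequence 19_gl000208_random at 22.8 times the floor. At chr5:38420845-38421046, the DMSO MBD3 fold was 3.09 and the IAA CTCF fold was 4.10, on 8 fragments. Most IAA listings in the MBD3 list lay at raised background: without it, MBD3, MBD2 and TET1 were listed at 1, 1 and 2 of the 7769 other MBD3 regions. Any of the 4 IAA lists held 3 of the 1140 regions, against 1.91% of all MBD3 regions.

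The floors give a rough measure of how far the treated MBD3 lists reached. The floor of the BPK25 MBD3 list was 7.92% of the DMSO floor, and its smallest listed pileup at the floor was 5 fragments. Scaled to that floor, the median pileup of the regions found alone came to 1.98 fragments. It reached 5 in 14 of 1140 regions (1.23%), all with raised background. Of the other MBD3 regions 1025 of 8972 (11.4%) reached it, 354 of them without raised background. For the IAA MBD3 list, whose floor of 19.3% rests on 1 region, the scaled median was 4.83 fragments against a smallest listed pileup of 9, and 38 regions (3.33%) reached it, 10 of them without raised background. Of the other MBD3 regions 2880 of 8972 (32.1%) reached it, 1828 of them without raised background. The IAA MBD3 list held 1 of the 7769 others without raised background. Both limits hold at the floor only, and a region of higher background needs more fragments to be listed. The counts that reach a limit are thus too high to be set against the number listed. The part of depth in the missing listings was not tested, and whether MBD3 was lost from the regions found alone cannot be told from these lists.

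TET1 and MBD2 were the proteins listed most often under BPK25 at MBD3 regions found alone, and they also had the longest BPK25 lists, with 777 and 510 regions against 375 for CTCF and 374 for MBD3. TET1 was listed at 9 of 1140 (0.789%, 0.416 to 1.49), against 5.9% of all DMSO MBD3 regions, and MBD2 at 6 (0.526%, 0.241 to 1.14), against 2.33%. Any of the 4 BPK25 lists held 16 (1.40%, 0.866 to 2.27), against 8.14%. The regions by choice overlap no listed TET1 or MBD2 region in DMSO, so each of these listings is one that the DMSO list lacked. The DMSO signal of TET1 and MBD2 below the listing limit was not measured there, so a gain of binding cannot be told from these listings. Their treated pileups were small, 9 to 16 fragments for TET1 and 12 to 19 for MBD2.

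Single regions show what such a listing rests on. At chr2:80114964-80115163, the region with the highest DMSO MBD3 fold among them, MBD3 had a fold of 4.83 on 35 fragments in DMSO and TET1 one of 6.02 on 12 fragments under BPK25, with summits 16 bp apart. At chr14:69556908-69557148, MBD3 had a DMSO fold of 2.84 on 22 fragments and TET1 the highest BPK25 fold of the 9, 6.44 on 13 fragments. At chrX:150674383-150674589, the summits of MBD3 in DMSO (fold 3.36) and of TET1 under BPK25 (fold 5.07) were 3 bp apart. For MBD2, chrX:10549453-10549672 had the highest DMSO MBD3 fold, 4.03, and a BPK25 MBD2 fold of 4.34 on 16 fragments. At chr5:163780217-163780503, the MBD3 fold was 3.40 and the BPK25 MBD2 fold, the highest of the 6, was 4.94 on 19 fragments. These 5 regions were singled out after their values were seen.

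A closer comparison for TET1 uses MBD3 regions that were also not listed for TET1 in DMSO but were listed for CTCF or MBD2. Of 4430 such regions, 128 (2.89%, 2.44 to 3.42) were listed for TET1 under BPK25, against 0.789% of the regions found alone. The list was cut into 4 bins of similar size by −log10 q. In the lowest, up to 5.54, the shares were 28 of 1148 (2.44%, 1.69 to 3.502) and 6 of 826 (0.726%, 0.333 to 1.58). With raised background left out they were 2.09% (1.38 to 3.14) and 0.501% (0.195 to 1.28), and the intervals did not overlap. In the second bin they were 2.20% (1.56 to 3.11) and 0.897% (0.246 to 3.21), and in the third 3.01% (2.18 to 4.13) and 1 of 80 (1.25%, 0.221 to 6.75), with overlapping intervals in both. For MBD2 under BPK25 the same sets gave 0.722% (0.512 to 1.02) and 0.526%, also with overlapping intervals. The 4430 regions could be listed for MBD2 in DMSO and the regions found alone could not, so these sets are not matched for MBD2. MBD2 regions found alone had a TET1 region under BPK25 in 0.734% (0.490 to 1.0996), a value close to that of MBD3. TET1 regions found alone, which were listed for TET1 in DMSO, had one in 0.410% (0.139 to 1.20).

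**Figure D5:**
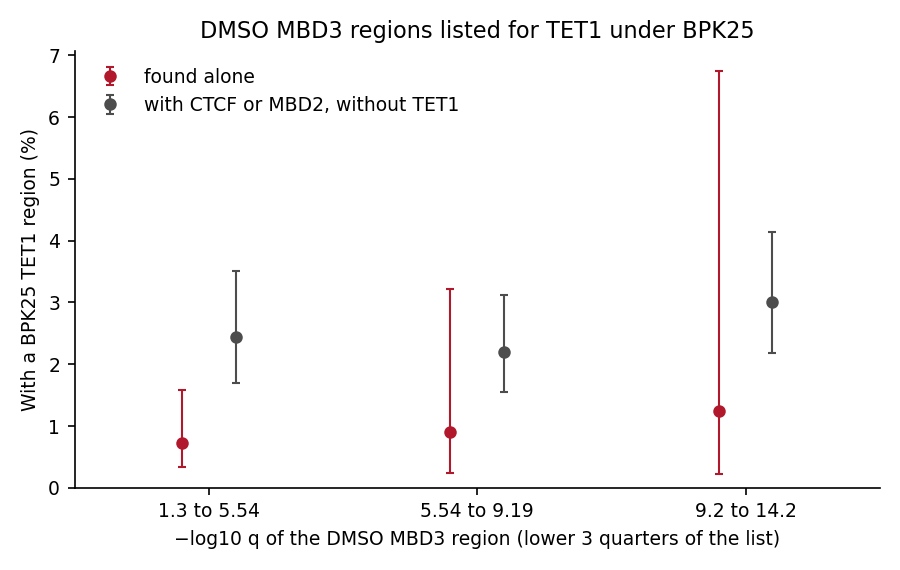
Share of DMSO MBD3 regions with a TET1 region under BPK25 (y axis, percent) in bins of the MBD3 list by −log10 q (x axis), for regions found alone and for regions with CTCF or MBD2 but without TET1 in DMSO; lines are 95% Wilson intervals. The intervals are apart in the lowest bin, 0.726% against 2.44%, and overlap in the next 2.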

How the data were processed

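ChIP-seq libraries of HEK293T cells (45 libraries in 15 groups of 3) gave 12 deposited peak lists, 1 per treatment and antibody, each from replicates 1 to 3 together. Build hg19, MACS2 2.1.2, Bowtie2 2.3.4, deepTools 3.5.0, FastQC 0.11.7, bedtools 2.25.0 and SAMtools 1.9 are named in the submitters' processing notes. Settings of the caller: not given in the sources used here. Each deposited list gives a linear fold ratio per peak, the −log10 of its p-value and q-value, and the summit's offset. These are the authors' values and described or ranked regions within a list.

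Sub-peaks of equal start and end made 1 region, which took the values of its sub-peak of largest −log10 p. Overlap meant 1 bp or more. Coordinates are 1-based hg19. Pileup and local background were recovered by solving fold = (pileup + 1)/(background + 1) together with the Poisson tail for whole pileups, to within 0.02% of −log10 p. This gave 10112 of 10137 DMSO MBD3 regions, all 1140 members among them. The 25 unsolved had a −log10 p above 150. Depth per library is unknown from peak lists, and the floors stand for relative depth. Intervals are 95% Wilson intervals. No test was made, as each group has 1 list.

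Named regions, on chromosomes 1 to 22 and X, are the 10 of highest fold, the 3 of largest −log10 q beyond these, the 3 widest, those listed for MBD3 under treatment, the 3 nearest the rule on either side, and the 3 stretches of 100 kb with most members (ties by shortest span). Members, lists and this rule were chosen with earlier results of these data known. The scripts were tested on simulated data. Python 3.11.15, numpy 2.4.6, pandas 2.3.3, SciPy 1.17.1 and matplotlib 3.10.9 were used.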

Additional observations from a re-analysis of the deposited data

How the results depend on the processing

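Of 26 alternatives run, 22 moved a number by less than 1.5 times or a median or share by less than its counting interval. These intervals are wide for rare listings: the share listed under any IAA treatment went from 0.263% to 0.0917% without raised background and to 0.554% with a −log10 q of 5 or more. The number of MBD3 regions found alone stayed between 1102 and 1258 on chromosomes 1 to 22 and X alone, with 50% of the shorter region as the overlap, with summits within 150 bp, and with gaps under 500 bp counted as shared. It fell to 361 with a −log10 q of 5 or more in the MBD3 list only. With that limit in every DMSO list it was 510, of which 149 overlapped a weaker region of another list, and the median fold was 3.73. The share listed for MBD3 under BPK25 was 0% once regions of raised background were left out, and 0.335% for the other MBD3 regions. Alternatives on promoters and motifs were not run, as they need a genome of build hg19, and none that leaves out a replicate was possible. No paired analysis was possible because each group has 1 list called on its 3 replicates together.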

Other observations

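Members off chromosomes 1 to 22 and X numbered 11 of 1140 (0.965%, 0.540 to 1.72), against 1.13% of the other MBD3 regions. They included 3 on alternate sequences of chromosome 6, with folds of 2.56, 4.55 and 4.72, and 2 on an alternate sequence of chromosome 17, with folds of 2.43 and 3.49689. Whether the primary copy of those sequences held a matching region was not tested. On 9_gl000199_random, 1 of 52 MBD3 regions was found alone, with a fold of 1.83.

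All 11 members with a fold under 2 were among the 50 with raised local background. Counted in windows of 10 Mb, 291 of the 307 windows that held an MBD3 region held a member, with a median of 3 members. Outside chromosome 13, the window with most members was the one on chromosome 17 from 40 to 50 Mb, with 12 of 116 MBD3 regions (10.3%, 6.02 to 17.2), a share close to that of the whole list.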
